A study of Mus musculus with 6 samples.

Results

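The 45 genes described here encode proteins that join the presynaptic terminal to the postsynaptic membrane across the synaptic cleft, and proteins that anchor receptors and signalling enzymes beneath that membrane. They were taken from the table by gene symbol, and each of the 45 has 1 row among the 22544 rows of the authors' deposited table. Of these, 25 are adhesion genes and 20 are scaffold and kinase genes (16 scaffolds and 4 subunits of CaMKII). RNA had been sequenced from cortical upper-layer neurons of Swiss Webster mice, labelled with green fluorescent protein and sorted by fluorescence, with 3 biological replicates at postnatal day 3 (P3) and 3 at postnatal day 5 (P5). The groups share strain, tissue, cell type and label and differ in age. The sources used here do not give how the cells came to carry the label, the sexes of the animals, or whether a replicate pooled several animals.

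At excitatory synapses, presynaptic neurexins and receptor phosphatases of the LAR family bind leucine-rich-repeat proteins and neuroligins on the postsynaptic side, and such pairs can start the assembly of a synapse. Inside the dendritic spine, PSD-95 and its relatives bind the tails of these adhesion proteins and of glutamate receptors, SAPAP proteins link PSD-95 to Shank, and Shank is linked to Homer and to actin. Inhibitory synapses use gephyrin in place of PSD-95. In the rodent cortex the first postnatal days precede the main wave of synapse formation.

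Levels are given as FPKM (fragments per length of transcript and total of fragments), so that genes can be set beside each other. The table holds 1 pooled FPKM per age and no value per replicate, so each gene has 1 level at P3 and 1 at P5 and no spread between replicates can be shown. Ratios are P5 over P3 on the log2 scale. The standard error (SE) of a ratio is its absolute value over the absolute value of the test statistic in the authors' deposited table, where ratio and statistic carry opposite signs. The number of fragments behind each value is unknown. In bulk RNA, fewer cells of a type and less RNA per cell cannot be told apart.

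None of the 44 tested members passed the test for a difference between P3 and P5. In the authors' deposited table, Cuffdiff called 0 of them at q = 0.05, each had q = 0.999988, and the lowest unadjusted p of a member was 0.071, for Dlg4. Over all 12865 tested genes the percentage called at that q was 0 in each direction, and 0.77% had an unadjusted p under 0.05, against 0 of the 44 members. The remaining member, Lrfn1, was not tested (0.0606 FPKM at P3 and 0.438 at P5). The 95% interval of the ratio held 0 in 44 of 44 members, and the SE had a median of 1.27 log2 units and ran from 0.85 to 3.79. Differences of 2-fold, or 1 log2 unit, were therefore not detectable for these genes. Higher and lower below describe pooled levels only.

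Most adhesion genes had higher pooled levels at P5, and the scaffold and kinase genes were split. Of 24 tested adhesion genes, 18 were higher and 6 lower at P5 by their FPKM, and the median log2 ratio was 0.66. Of the 20 scaffold and kinase genes, 12 were higher and 8 lower, with a median of 0.21. Among the 12313 tested genes with FPKM above 0 at both ages, 55.6% were higher and 44.4% lower at P5, with a median of 0.13, so the scaffold and kinase genes lay close to the table as a whole. Median FPKM of the adhesion genes was 6.25 at P3 and 10.4 at P5, and that of the scaffold and kinase genes was 6.28 and 5.93, beside 5.32 and 6.05 over those 12313 genes. The classes thus started at the same median level. Centred on the median of all tested genes, 16 adhesion genes and 10 scaffold and kinase genes were above 0. The members whose sign turned with centring were Ptprd, Nlgn2, Dlgap1 and Homer2. Without members at loci shared with another gene, the median log2 ratio was 0.45 for adhesion genes and 0.34 for scaffold and kinase genes. The classes thus lay closer together without those members.

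The difference between the class medians was -0.45 log2 units (scaffold and kinase minus adhesion), and it carries no test, because genes are not replicates. Lrrtm1, Lrrtm2, Lrrtm3, Lrfn4, Lrrc4, Dlgap4 and Homer3 share their deposited locus with another gene. Without these 7 members the difference was -0.11, with 13 of 19 adhesion genes and 12 of 18 scaffold and kinase genes higher at P5. Log2 ratios above 1 were found in 8 adhesion genes and 5 scaffold and kinase genes, and below -1 in 3 of each. Over the 12313 genes these shares were 23.9% and 10%. The counts above 1 include Lrfn3, Dlg4 and Dlgap3, and those below -1 include Shank3. Each was under 0.5 FPKM at 1 age, where a tested gene nearly always had to be higher at the other. The direction of these members is therefore no finding.

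**Figure D1:**
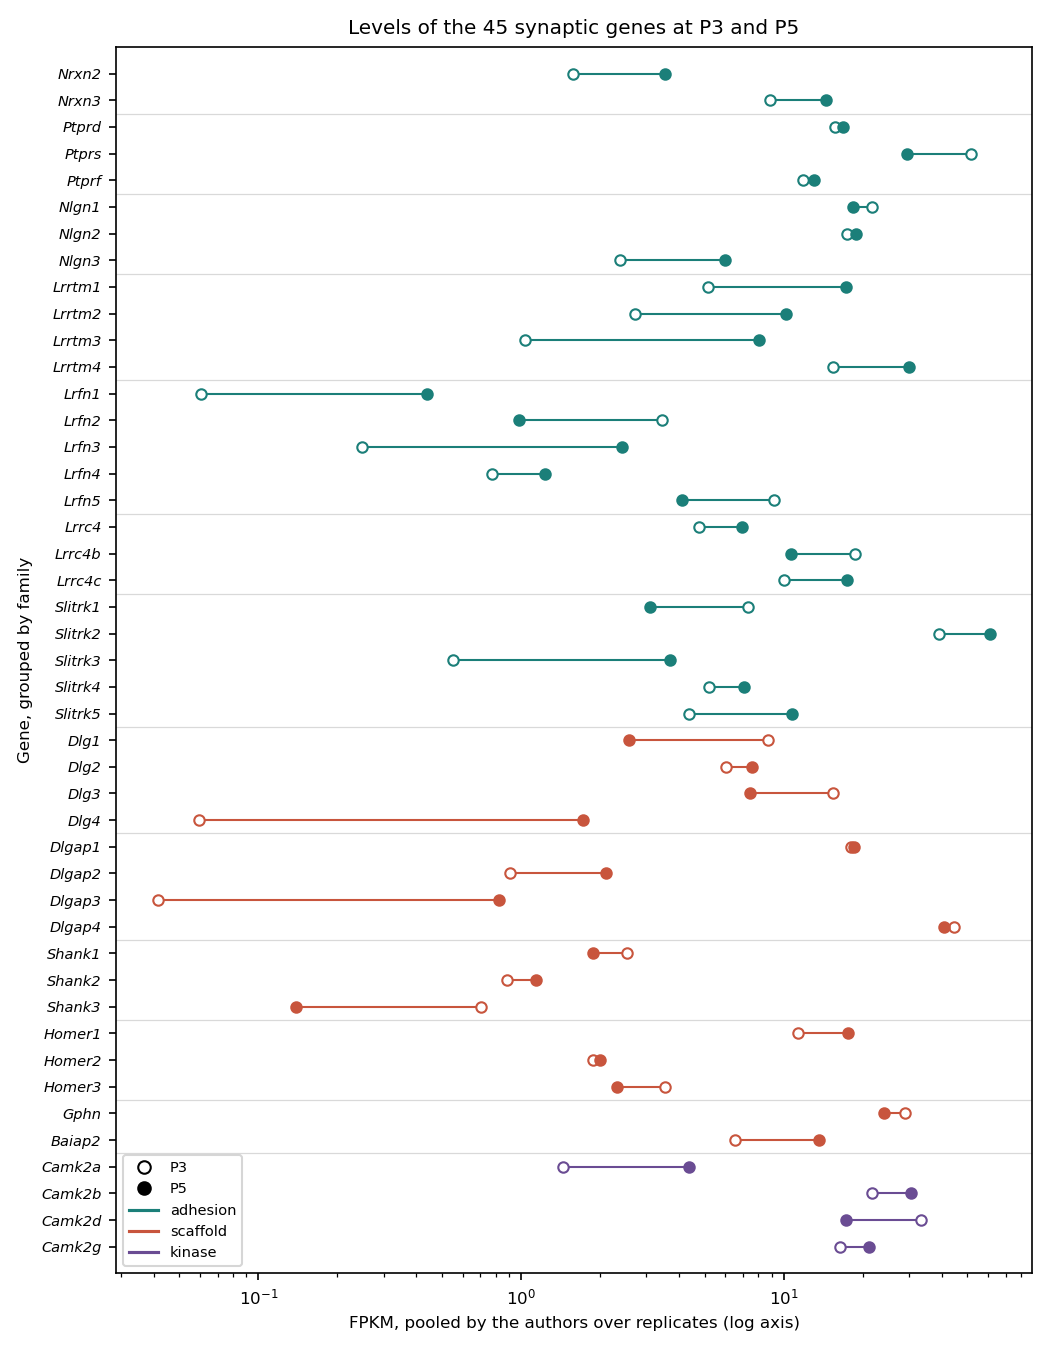
FPKM at P3 (open circles) and at P5 (filled circles) on a log axis for each of the 45 genes, grouped by family, with colour showing adhesion, scaffold or kinase. Each circle is 1 value pooled by the authors, so no error is drawn. Among the Lrrtm genes every P5 circle lies to the right of its P3 circle, and Dlg4 and Dlgap3 lie furthest to the left at P3.

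Presynaptic organisers came first in order of position. Neurexins are the presynaptic partners of neuroligins and LRRTMs. In the authors' deposited table Nrxn3 had 8.90 FPKM at P3 and 14.4 at P5 (ratio 0.70 in log2 units, SE 1.10, p = 0.52), and the less abundant Nrxn2 had 1.57 and 3.53 (1.16, SE 1.55, p = 0.45). Both were higher at P5. Receptor phosphatases of the LAR family, which bind Slitrks, SALMs and Lrrc4b, were more abundant. Ptprs (mm9 chr17:56551849-56615903) had the highest level of any member at P3, with 51.6 FPKM, and 29.6 at P5, a log2 ratio of -0.80 in the authors' deposited table (SE 0.86, p = 0.35). Ptprd had 15.6 and 16.8 FPKM and Ptprf 11.8 and 13.1. Ptprs made up 65.3% of the summed FPKM of these 3 genes at P3 and 49.7% at P5, while the levels of the other two were nearly the same at both ages.

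Neuroligins are postsynaptic receptors of neurexins, with Nlgn1 typical of excitatory and Nlgn2 of inhibitory synapses. Nlgn1 had 21.7 FPKM at P3 and 18.3 at P5, with a log2 ratio of -0.24 in the authors' deposited table (SE 0.90, p = 0.79), and Nlgn2 had 17.4 and 18.9. The pair thus stood at similar levels at both ages. Nlgn3 had 2.38 and 5.99 FPKM (log2 ratio 1.33, SE 1.34, p = 0.32 in the authors' deposited table). Its share of the summed level of the 3 genes was 5.75% at P3 and 13.9% at P5.

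LRRTM proteins are postsynaptic leucine-rich-repeat proteins of excitatory synapses that bind neurexins, and Lrrtm3 and Lrrtm4 also bind heparan sulfate chains. All 4 genes had higher FPKM at P5. Lrrtm4 had 15.4 FPKM at P3 and 30.0 at P5 (ratio 0.96 in log2 units, SE 1.06, p = 0.37 in the authors' deposited table), and Lrrtm1 had 5.14 and 17.3. Lrrtm2 had 2.73 and 10.2. Lrrtm3 had 1.04 and 8.04 FPKM, with a log2 ratio of 2.95 in the authors' deposited table (SE 2.35, p = 0.21). The summed level of the family was 24.4 FPKM at P3 and 65.5 at P5, the widest gap between ages of the adhesion families, and the plot of paralogue make-up shows that each member added to it.

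The Lrrtm genes other than Lrrtm4 lie inside alpha-catenin genes, which bears on how their reads were assigned. The deposited loci of Lrrtm1 (mm9 chr6:76831631-77929661), Lrrtm2 and Lrrtm3 (mm9 chr10:62892846-64466415) are each the same as that of a catenin gene, respectively Ctnna2, Ctnna1 and Ctnna3. The catenin genes had smaller ratios, of either sign. In the authors' deposited table Ctnna2 had 23.1 and 15.1 FPKM (log2 ratio -0.61), Ctnna1 had 37.5 and 47.0 (0.33), and Ctnna3 was listed at 0 at both ages. Lrrtm4, alone at its locus (mm9 chr6:79968871-79974926), was higher at P5 as well. Whether reads of the host genes entered these values was not tested, and the SEs of the 3 nested genes, 2.05 to 2.45, were wider than that of Lrrtm4.

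Because all 4 members shared a direction, the promoters of 2 nested members are shown, from RefSeq on GRCm38.p6 (a newer build than the mm9 of the loci above). Each run holds 250 bases before and 50 after the annotated start, and capitals mark CG, the dinucleotide that can be methylated, which reads the same on both strands. The Lrrtm1 run is chr6:77242227-77242526 on the plus strand, and the Lrrtm3 run is chr10:64090206-64090505 on the minus strand.
Lrrtm1: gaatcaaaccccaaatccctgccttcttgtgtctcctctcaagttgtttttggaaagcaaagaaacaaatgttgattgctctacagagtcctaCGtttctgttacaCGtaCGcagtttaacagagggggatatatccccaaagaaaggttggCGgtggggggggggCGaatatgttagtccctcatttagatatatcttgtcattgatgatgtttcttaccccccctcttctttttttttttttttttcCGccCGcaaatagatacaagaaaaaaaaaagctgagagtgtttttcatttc
Lrrtm3: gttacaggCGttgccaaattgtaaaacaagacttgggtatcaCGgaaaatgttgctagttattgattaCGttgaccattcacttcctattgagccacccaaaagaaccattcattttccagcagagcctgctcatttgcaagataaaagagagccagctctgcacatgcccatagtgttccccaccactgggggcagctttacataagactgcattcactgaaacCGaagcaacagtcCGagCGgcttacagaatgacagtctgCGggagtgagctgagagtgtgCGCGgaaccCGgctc
They hold 7 and 10 CG, beside a median of 7 over 32851 promoters of this length, of which 94.6% hold at least 1. Both lie near that median.

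SALM proteins, encoded by the Lrfn genes, are postsynaptic adhesion proteins, some of which bind LAR phosphatases and some PSD-95. They went in both directions. Lrfn5 had 9.18 FPKM at P3 and 4.12 at P5 (ratio -1.16 in log2 units, SE 1.11, p = 0.30 in the authors' deposited table), and Lrfn2 had 3.44 and 0.983. Lrfn3 had 0.249 and 2.42 FPKM, a log2 ratio of 3.28 (SE 2.45, p = 0.18 in the authors' deposited table). The family was low as a whole, since no Lrfn gene reached 10 FPKM at either age. Lrfn4 had 0.775 and 1.24 FPKM, at a locus shared with Pcx, and its SE of 3.79 was the widest among the 44 tested members.

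Netrin-G ligands, encoded by Lrrc4 genes, are postsynaptic, and Lrrc4c and Lrrc4 take their name from netrin-G partners on axons, while Lrrc4b binds LAR phosphatases. Lrrc4b had 18.8 FPKM at P3 and 10.6 at P5 (ratio -0.82 in log2 units, SE 0.95, p = 0.39 in the authors' deposited table). Lrrc4c had 10.01 and 17.4 FPKM and Lrrc4 had 4.78 and 6.92, the latter at a locus shared with Snd1. Lrrc4b led at P3 and Lrrc4c at P5. The netrin-G genes themselves, looked up after the values were seen, were not tested, with Ntng1 at 0.255 and 0.264 FPKM and Ntng2 listed at 0 at both ages.

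Slitrks are postsynaptic partners of LAR phosphatases, and Slitrk3 is the member known from inhibitory synapses. Slitrk2 (mm9 chrX:63902493-63914577) was the most abundant of the 45 genes at P5, with 39.2 FPKM at P3 and 61.3 at P5 (ratio 0.65 in log2 units, SE 1.40, p = 0.64 in the authors' deposited table). Slitrk3 had 0.552 and 3.71 FPKM, a log2 ratio of 2.75 with the lowest p of the adhesion genes (SE 2.01, p = 0.17 in the authors' deposited table). Slitrk5 had 4.38 and 10.8 FPKM and Slitrk4 had 5.18 and 7.08. Slitrk1 was the exception, with 7.32 FPKM at P3 and 3.09 at P5. Slitrk2 made up 69.2% of the family sum at P3 and 71.3% at P5, so its share was nearly the same at both ages. The share of Slitrk1 was 12.9% at P3 and 3.60% at P5, and that of Slitrk5 was 7.74% and 12.5%.

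**Figure D2:**
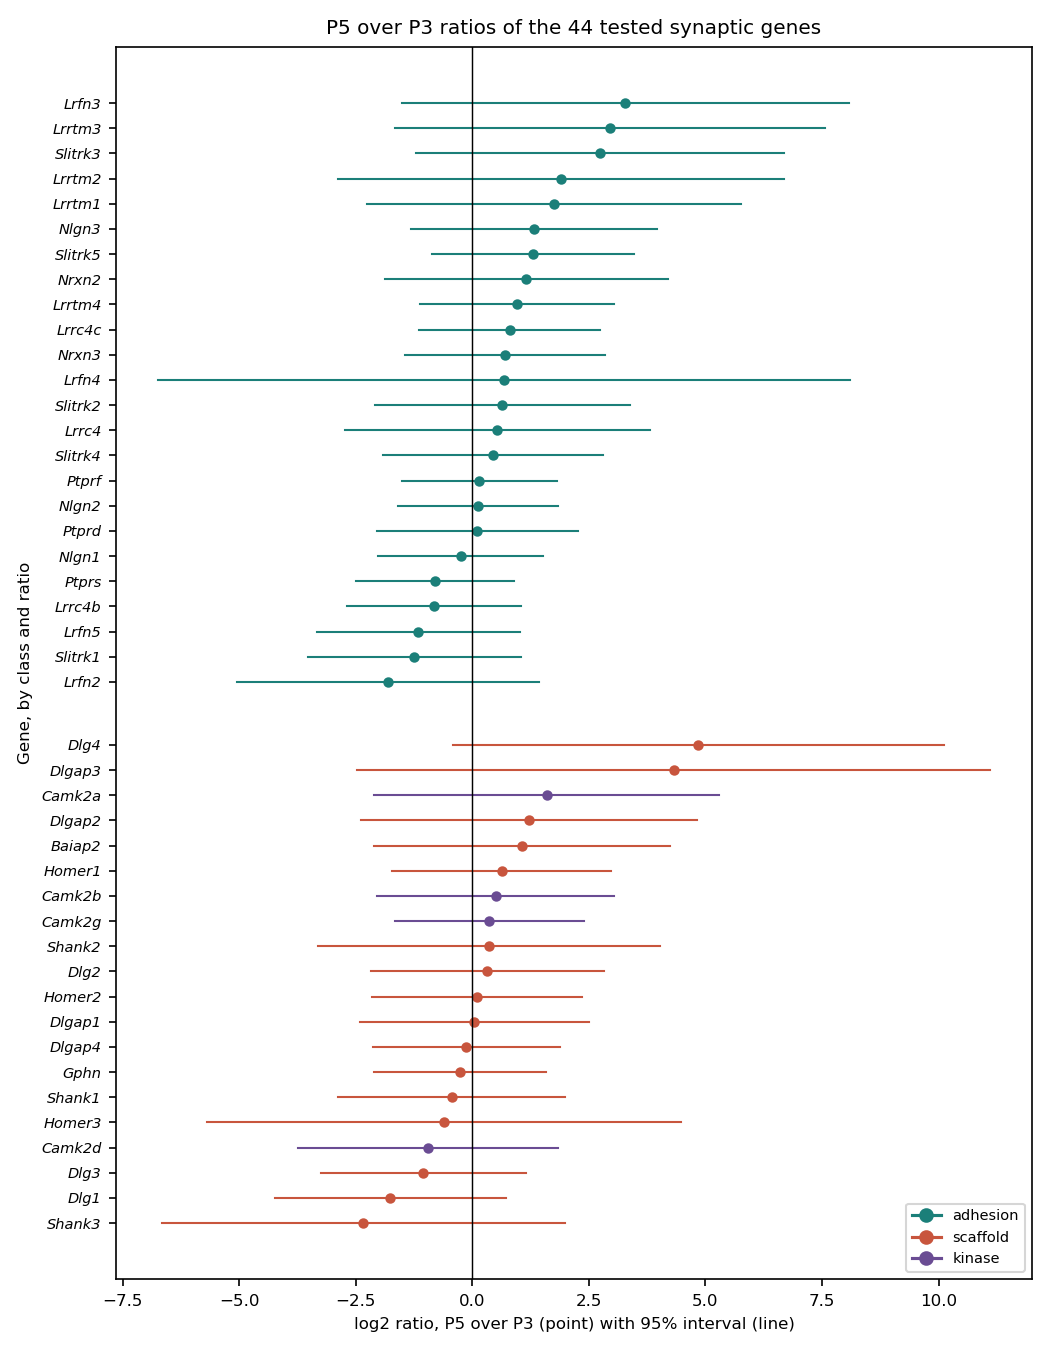
Log2 ratio of P5 over P3 (points) with its 95% interval (lines) for each of the 44 tested genes, sorted within the adhesion class (top) and the scaffold and kinase class (bottom). Every interval crosses 0. The points of 18 adhesion genes and of 12 scaffold and kinase genes lie above 0.

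The PSD-95 family anchors receptors in the postsynaptic membrane. SAP102 (Dlg3) is known to prevail in young neurons and PSD-95 (Dlg4) in mature ones. Dlg3 had 15.5 FPKM at P3 and 7.47 at P5 (ratio -1.05 in log2 units, SE 1.12, p = 0.35 in the authors' deposited table). Dlg4 (mm9 chr11:69832107-69859033) had 0.0596 and 1.72 FPKM, a log2 ratio of 4.85 (SE 2.69, p = 0.071 in the authors' deposited table). This was the largest ratio among the 44 tested members, and its interval ran from -0.41 to 10.1. A tested gene this low at P3 nearly always had to be higher at P5, so the direction for Dlg4 is no finding. Dlg1, which encodes SAP97, had 8.71 and 2.58 FPKM, and Dlg2, which encodes PSD-93, had 6.02 and 7.55. The summed level was 30.3 FPKM at P3 and 19.3 at P5. Dlg4 contributed 0.197% of it at P3 and 8.89% at P5, so the other paralogues held nearly all of it at both ages.

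SAPAP proteins, encoded by Dlgap genes, connect the PSD-95 family to Shank. Dlgap4 had 44.5 FPKM at P3 and 40.7 at P5 (ratio -0.13 in log2 units, SE 1.02, p = 0.90 in the authors' deposited table), at a locus shared with 4930405A21Rik, and Dlgap1 had 18.0 and 18.6. Dlgap4 alone held 70.1% of the family sum at P3 and 65.4% at P5. Dlgap2 had 0.911 and 2.11 FPKM. Dlgap3 had 0.0414 and 0.828, a log2 ratio of 4.32 (SE 3.46, p = 0.21 in the authors' deposited table). At P3 the family thus ran from 0.0414 to 44.5 FPKM.

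The RefSeq promoters of the most and the least abundant SAPAP gene are shown because they differ in CG content as well as in level. They are written as for the Lrrtm genes, with CG in capitals, and both lie on the plus strand of GRCm38.p6. The Dlgap4 run is chr2:156720715-156721014 and the Dlgap3 run is chr4:127172630-127172929.
Dlgap4: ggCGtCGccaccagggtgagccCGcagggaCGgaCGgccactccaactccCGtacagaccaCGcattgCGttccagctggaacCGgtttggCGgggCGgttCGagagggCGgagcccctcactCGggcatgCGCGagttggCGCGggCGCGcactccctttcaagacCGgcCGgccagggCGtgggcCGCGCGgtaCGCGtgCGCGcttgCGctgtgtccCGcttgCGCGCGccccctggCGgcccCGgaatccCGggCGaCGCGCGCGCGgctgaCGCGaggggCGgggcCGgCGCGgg
Dlgap3: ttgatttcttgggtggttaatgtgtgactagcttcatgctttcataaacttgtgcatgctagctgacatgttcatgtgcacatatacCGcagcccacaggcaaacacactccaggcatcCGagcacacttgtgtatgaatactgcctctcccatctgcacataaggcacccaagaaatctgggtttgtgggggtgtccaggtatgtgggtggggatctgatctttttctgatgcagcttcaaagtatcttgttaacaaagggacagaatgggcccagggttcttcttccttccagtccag
Dlgap4 has 50 CG in these 300 bases, more than 99.1% of the 32851 promoters, and Dlgap3 has 2. RefSeq promoters were matched for 33 of the 45 members. The 17 of them with at least 20 CG in a promoter had a median of 11.3 FPKM at P3, and the other 16 had 6.67. Over 8752 tested genes with a promoter, the same split gave 6.34 and 4.27. Levels varied widely inside each group, from 0.249 to 51.6 FPKM and from 0.0414 to 39.2, so the split is a description of these genes and was not tested.

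Shank proteins bind SAPAPs and Homers and form the deeper layer of the postsynaptic density. All 3 genes were low. Shank1 had 2.54 FPKM at P3 and 1.88 at P5 (ratio -0.44 in log2 units, SE 1.24, p = 0.72 in the authors' deposited table), and Shank2 had 0.887 and 1.14. Shank3 had 0.707 and 0.140 FPKM, a log2 ratio of -2.34 (SE 2.20, p = 0.29 in the authors' deposited table), the lowest ratio of the 44 tested members. The summed Shank level, 4.14 FPKM at P3 and 3.15 at P5, was the lowest of the 13 families.

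Homer proteins bind Shank and group 1 metabotropic glutamate receptors. Homer1 had 11.3 FPKM at P3 and 17.6 at P5 (ratio 0.64 in log2 units, SE 1.20, p = 0.59 in the authors' deposited table), and it held 67.7% of the family sum at P3 and 80.3% at P5. Homer2 had 1.88 and 2.002 FPKM and Homer3 had 3.54 and 2.33, the latter at a locus shared with Ddx49. The table has 1 row per gene, so the short, activity-induced form of Homer1 and the long forms cannot be told apart.

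Gephyrin clusters inhibitory receptors, and IRSp53, encoded by Baiap2, links Shank and PSD-95 to actin. Gphn had 29.0 FPKM at P3 and 24.2 at P5 (ratio -0.26 in log2 units, SE 0.94, p = 0.78 in the authors' deposited table). Baiap2 had 6.53 and 13.7 FPKM (log2 ratio 1.07, SE 1.62, p = 0.51 in the authors' deposited table). Gphn and Nlgn2, a pair known from inhibitory synapses, thus had pooled levels within a narrow band at both ages.

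CaMKII is the calcium-activated kinase of the postsynaptic density, and its alpha subunit is known to become a leading protein of the mature forebrain synapse. Camk2b had 21.7 FPKM at P3 and 30.7 at P5 (ratio 0.50 in log2 units, SE 1.29, p = 0.70 in the authors' deposited table). Camk2d had 33.4 and 17.2 FPKM and Camk2g had 16.4 and 21.2. Camk2a had 1.45 and 4.38 FPKM (log2 ratio 1.60, SE 1.89, p = 0.40 in the authors' deposited table), the lowest level of the 4 subunits at both ages. The summed level was nearly the same, 73.0 FPKM at P3 and 73.5 at P5. Within it Camk2d was first at P3 with 45.8% and Camk2b first at P5 with 41.7%, and Camk2a held 1.98% and 5.96%.

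**Figure D3:**
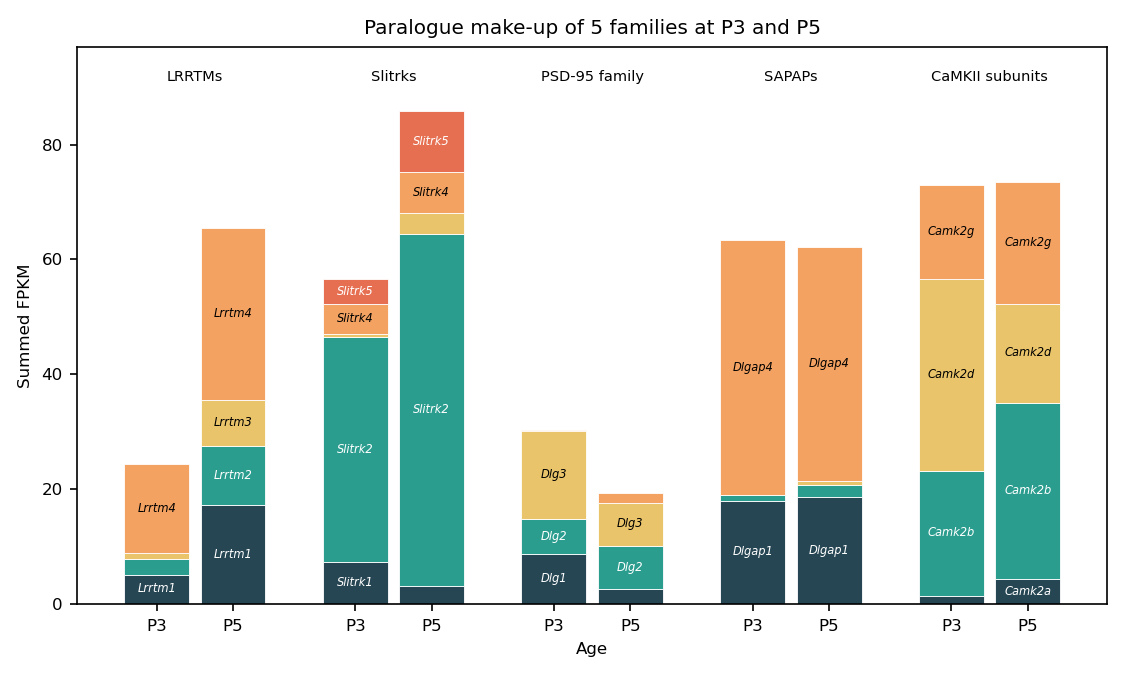
Summed FPKM (vertical axis, from 0) of 5 families at P3 and P5, each bar split by paralogue in the order of gene number from the bottom, with slices of 4 FPKM or less left without a name. The Lrrtm bar is taller at P5 (65.5 against 24.4 FPKM), the PSD-95 family bar is shorter (19.3 against 30.3), and the SAPAP and CaMKII bars are nearly equal in height at both ages.

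Ratios of the members depended on how low the gene was at P3, and so did those of the whole table. Only 2 of the 12313 tested genes were under 0.5 FPKM at both ages, so a tested gene under 0.5 FPKM at P3 nearly always had to be higher at P5. Of 1231 such genes, 1229 were higher. Dlg4, Dlgap3 and Lrfn3 are among them, and the direction of their ratios is therefore no finding. In the same way, all 363 tested genes under 0.5 FPKM at P5 were lower there, Shank3 among them.

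Above that range most adhesion genes had higher pooled levels at P5, some of them by little or at shared loci. With 1 to 10 FPKM at P3, 9 of 12 adhesion genes were higher at P5 with a median log2 ratio of 0.93, and 4 of 7 scaffold and kinase genes with a median of 0.09, beside 55.3% and 0.12 over 5912 genes of the table. At 10 FPKM and over, 6 of 9 adhesion genes (median 0.12) and 4 of 8 scaffold and kinase genes (median -0.04) were higher, beside 39.6% and -0.16 over 4210 genes. Those 6 adhesion genes include Ptprd, Nlgn2 and Ptprf, with log2 ratios of only 0.11, 0.12 and 0.15. The 9 adhesion genes higher at P5 from the 1 to 10 FPKM group include Lrrtm1, Lrrtm2, Lrrtm3 and Lrrc4, whose loci are shared with another gene. The counts by level were not made again without such members. P3 level is also the denominator of the ratio, so grouping by P5 level gives another background. At 10 FPKM and over at P5, 10 of 13 adhesion genes and 5 of 8 scaffold and kinase genes were higher, beside 2469 of 4431 genes. With 1 to 10 FPKM at P5 the counts were 8 of 10 and 6 of 10, beside 3797 of 6564 genes. None of these counts was tested.

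**Figure D4:**
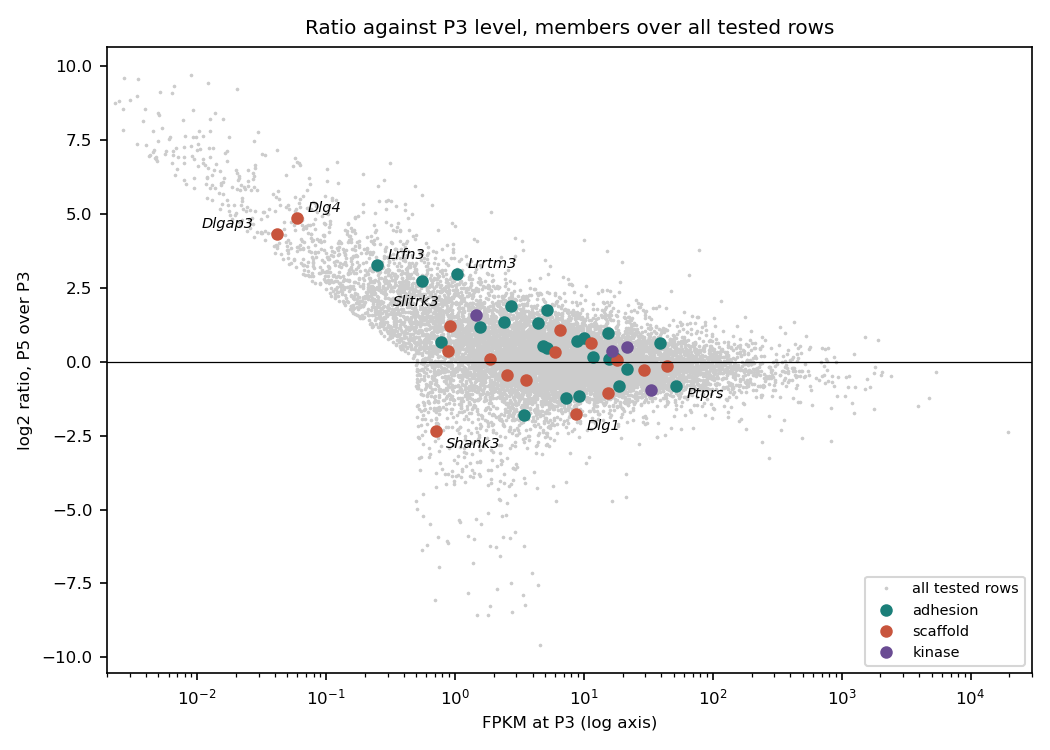
Log2 ratio of P5 over P3 against FPKM at P3 (log axis) for all 12313 tested genes with FPKM above 0 at both ages (grey) and the 44 tested members (coloured by class). The grey points end at a slanted edge on the left, because genes low at both ages were not tested, and Dlg4, Dlgap3 and Lrfn3 lie on that side. Members with 10 FPKM or more at P3 lie between log2 ratios of -1.05 and 0.96.

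Further genes of the same machinery, from lists that do not include the members, had 0 genes called by Cuffdiff at q = 0.05 and 0 with an unadjusted p under 0.05. Of 40 other tested synaptic adhesion genes, 24 were higher and 16 lower at P5, with a median log2 ratio of 0.35. The most abundant were Ntm (41.4 FPKM at P3 and 90.7 at P5) and Opcml (51.4 and 62.6), which encode adhesion proteins held by a lipid anchor. The calsyntenin genes Clstn3 (2.24 and 6.89) and Clstn2 (20.1 and 10.7) had the lowest p in each direction. Of 48 other scaffold genes, 26 were higher and 22 lower, with a median of 0.12, close to that of the whole table. Cask, which binds neurexin tails, was the most abundant at 154 and 191 FPKM.

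Genes of calcium and calmodulin signalling around CaMKII had mostly higher pooled levels at P5. Of 22 tested, 18 were higher and 4 lower, with a median log2 ratio of 0.71. Nrgn, which encodes the postsynaptic calmodulin-binding protein neurogranin, had 15.2 FPKM at P3 and 82.4 at P5 (ratio 2.44 in log2 units, SE 1.26, p = 0.052 in the authors' deposited table). The calmodulin genes Calm2, with 188 and 227 FPKM, and Calm3, with 174 and 139, were abundant at both ages. Rcan1, an inhibitor of calcineurin, had the lowest p among those lower at P5, with 20.8 and 8.94 FPKM.

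Markers of other cell types were present in the same libraries, most of them at higher pooled levels at P5. All 16 upper-layer and pan-neuronal markers with a row reached 1 FPKM at both ages, and their summed level was 1208 FPKM at P3 and 1686 at P5. The sums were 2750 and 3390 FPKM for 14 astrocyte markers (12 of 14 higher at P5), 46.4 and 197 for 14 microglia markers (12 of 12 tested higher), 166 and 371 for 14 oligodendrocyte lineage markers (12 of 12 with FPKM above 0 at both ages higher), and 916 and 958 for 14 endothelial and mural markers (10 of 12 higher). Rgs5 made up nearly all of the last sum, with 911 FPKM at P3 and 905 at P5, and the other 13 endothelial and mural markers summed to 5.31 and 52.3 FPKM. Among defining markers, Itgam, Tek, Mag, Mog and Pvalb were listed at 0 at P3 and Ly6c1 at both ages. At P3 the median was 0.431 FPKM for the microglia markers and 0.167 for the endothelial and mural markers counted above. A tested gene under 0.5 FPKM at P3 nearly always had to be higher at P5. The counts of higher genes in those lists are therefore no finding. GABAergic markers summed to 275 and 531 FPKM (7 of 11 higher), with Npy alone at 155 and 356 and Sst at 30.1 and 95.6. Dlx1 (28.5 and 15.7) and Calb2 (18.6 and 8.83) were among the 4 GABAergic markers lower at P5. Progenitor markers summed to 5594 and 4421 FPKM (2 of 10 higher, with Fabp7 alone at 5388 and 4272), and deep-layer and subplate markers to 50.8 and 113 (10 of 12 higher). At both ages the astrocyte and the progenitor sums were above that of the upper-layer and pan-neuronal markers. Several adhesion members are also made by glia or by other neurons, and the part of these cells in the values above was not tested.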

How the data were processed

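RNA sequencing of sorted neurons, with 3 samples at P3 and 3 at P5 grouped by their titles, was deposited as 1 table. TopHat, Cuffdiff 2.02 and mm9 are named in the submitters' processing notes. The sources used here do not give the gene annotation or the strandedness. Its headers give 1 FPKM per age and, per gene, a log2 ratio, a statistic with its p-value, and a q-value. With 3 samples per age, each FPKM was read as pooled by the authors over replicates. The deposited ratio and statistic were handled as a score, since a placeholder stands where 1 age is at 0. Per-sample depth is unknown, and 0 columns of per-sample values were left aside.

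The main test was the deposited one at q = 0.05, on genes with status OK. Deposited p-values matched two-sided normal tails of the statistic within 2.8e-06, so the SE is the absolute ratio over the absolute statistic (their signs are opposite) and 95% intervals are 1.96 SE either way. Functions were tested on simulated data. Members and lists were chosen with earlier results of these data known, so lists are described without a test. Every member is named, with full statistics for the most abundant and the lowest-p member of each family. In other lists the 3 most abundant genes and the lowest p in each direction could be named, and some of these are not reported here. Starts of loci, read as counted from 0, are printed from 1 (for 2634 of 20141 genes also in GENCODE M21, end minus start equalled the gene length, and for 437 it was 1 short). Python 3.11.15, pandas 2.3.3 and scipy 1.17.1 were used. Alternatives were pseudocounts, filters on level and status, centring, means, other thresholds, and 2 added after seeing the data.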

Additional observations from a re-analysis of the deposited data

How the results depend on the processing

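Under all settings tried, 0 members were called: q at 0.01, Bonferroni adjustment, and the test statistic divided by its robust spread of 0.66 (a standard normal has 1, so the intervals given may be too wide), where the lowest q of a member was 0.457. That rescaling called 3 genes of the table at q = 0.05. Its p was under 0.05 in 4 members (9.09% of those tested) and in 6.36% of all tested genes. Dlg4 and Lrfn3 are among these 4 members, and both were under 0.5 FPKM at P3. Such genes were tested only because of their level at P5, so the higher percentage of the members is no finding. The signs of both class medians and of their difference held under every setting, but the sizes did not. The adhesion median of 0.66 was 0.54 with a pseudocount of 1 FPKM, 0.53 centred on the median of all tested genes, and 0.45 without members at a locus shared with another gene. The scaffold and kinase median of 0.21 was 0.12 with a pseudocount of 1 FPKM, 0.079 centred, 0.39 as a mean, 0.34 without shared loci, and 0.092 without members of mean FPKM under 1. The difference of -0.45 was -0.25 with means, -0.11 without shared loci, and -0.57 without members of mean FPKM under 1. Counts of members higher at P5 (13 to 19 adhesion genes, 10 to 12 scaffold and kinase genes) and median FPKM stayed within 1.5 times under the settings tried for them. Leaving out shared loci or members of low mean was chosen after seeing the data, and the cause of these moves beyond the fewer genes used was not tested. No paired analysis was possible because the table holds 1 pooled value per age, and for the same reason no replicate could be left out.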

Other observations

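On mm9 the deposited loci had a median span of 83.2 kb for the 25 adhesion genes and 98.3 kb for the 20 scaffold and kinase genes, beside 26.1 kb over the 12865 tested genes. Spans over 100 kb were found in 48% and 50% of the members and in 16.6% of tested genes. The longest were Nrxn3 and, through its host Ctnna3, Lrrtm3, while the Slitrk loci were short, from 4251 to 12085 bases. Some spans, such as those of Lrrtm1, Lrrtm2 and Lrrtm3, are those of a host gene. Without loci shared with another row, the median was 21.5 kb for 20 adhesion genes (7 over 100 kb, 35%) and 98.3 kb for 18 scaffold and kinase genes (9 over 100 kb), beside 23.1 kb over 10700 tested genes (14.0% over 100 kb). The longer median of the adhesion genes thus rests on the shared loci.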
